A study of Rattus norvegicus with 12 samples.

Results

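The genes described here encode potassium channel subunits, measured by RNA sequencing in rat lumbar spinal cord. They are the protein-coding rows named Kcn, further letters and a number that reached 1 CPM, a read count scaled to a common library total, in 3 or more of the 12 libraries. Of 89 such gene names, 74 passed this minimum and 15 did not, out of 23526 genes in the table. One Kcnj gene is left out by the rule and not reported here. The member nearest above the minimum was Kcnj15, whose 3rd highest CPM was 1.37, and the gene nearest below it was Kcnh3, at 0.983. The groups were sham tissue labelled day 0 and tissue from days 3, 7 and 14 of a spinal cord injury (SCI), with 3 libraries each. The labels give neither the level and kind of injury, the strain, sex or age, nor whether replicates came from separate animals. Every p-value here thus reflects spread among the libraries at hand, possibly of technical origin. No sham tissue matched to the later days was used here, so time since surgery and injury cannot be told apart.

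Potassium channels let potassium leave cells and thereby set the resting potential, end action potentials and space them in time. Voltage-gated pores (Kcna to Kcnd, Kcnh and Kcnq) open on depolarisation, inward rectifiers (Kcnj) and leak channels (Kcnk) act near rest, and Kcnma, Kcnn and Kcnt channels open with intracellular calcium or sodium. Auxiliary subunits (Kcnab, Kcne, Kcnip and Kcnmb) bind pores and alter their gating or trafficking, and silent subunits (Kcnf, Kcng, Kcns and Kcnv) work only in tetramers with other voltage-gated subunits. In spinal cord, neurons carry most voltage-gated channels, whereas astrocytes, microglia, infiltrating immune cells and vessel walls use a smaller set.

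By general knowledge of where each gene is used, 32 members were placed in a largely neuronal class, 8 in a glial, immune or vascular class (Kcnj16, Kcnk1, Kcnk13, Kcnk6, Kcna3, Kcnn4, Kcnj8 and Kcna5) and 34 in neither. The classes were set with earlier results of these data known, so differences between them below are descriptions only. The 74 members fell into 19 subfamilies by name, of which Kcnj with 12 and Kcnk with 11 held most. All 74 were tested, and 51 reached 1 CPM in all 12 libraries.

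The libraries held 63010295 to 79072710 counts. The 12 general neuronal markers, none of which was at 0 in any library, summed to 9.02%, 88.4% and 7.10% of the sham mean in the SCI day 3 libraries (replicates 1, 2 and 3 in this order throughout), against 82.6% to 111% in the sham libraries and 70.1% to 111% at days 7 and 14. A list of 8 sensory ganglion neuron markers was high in SCI day 14 replicate 1 (sum 324.5 CPM), SCI day 14 replicate 2 (555 CPM) and SCI day 3 replicate 2 (124 CPM), against 12.8 to 14.1 CPM in sham. Scn10a, a sodium channel gene of nociceptors, gave 78.8 and 131 CPM in the 2 day 14 libraries, against at most 0.476 CPM in sham. Schwann cell markers summed to 28.0% to 235% of the sham mean within sham itself. Values without these libraries are given below for the classes and for the genes described most fully.

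Promoters of members of RefSeq's table (assembly GRCr8, from 250 bases before to 50 bases after the start) were found for 51 members, in 56 entries. The 3 genes that passed the test at day 3 are shown first, because the results turn on them, and Kcnc1 after them as a fast-spiking channel gene low in the same libraries. Capitals mark the GC box GGGCGG on either strand, the short motif bound by Sp-family factors.
Kcnj8: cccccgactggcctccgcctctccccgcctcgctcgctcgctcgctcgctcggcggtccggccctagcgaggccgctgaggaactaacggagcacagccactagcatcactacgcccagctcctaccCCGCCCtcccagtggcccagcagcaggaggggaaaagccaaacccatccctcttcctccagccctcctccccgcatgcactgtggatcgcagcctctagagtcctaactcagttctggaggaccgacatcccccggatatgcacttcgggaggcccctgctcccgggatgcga
Kcnh1: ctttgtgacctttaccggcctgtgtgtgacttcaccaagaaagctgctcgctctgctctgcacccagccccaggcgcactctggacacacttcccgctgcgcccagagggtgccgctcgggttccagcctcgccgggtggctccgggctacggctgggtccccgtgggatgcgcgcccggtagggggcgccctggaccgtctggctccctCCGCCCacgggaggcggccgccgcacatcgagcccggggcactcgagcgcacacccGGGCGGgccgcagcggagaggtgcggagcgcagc
Kcne5: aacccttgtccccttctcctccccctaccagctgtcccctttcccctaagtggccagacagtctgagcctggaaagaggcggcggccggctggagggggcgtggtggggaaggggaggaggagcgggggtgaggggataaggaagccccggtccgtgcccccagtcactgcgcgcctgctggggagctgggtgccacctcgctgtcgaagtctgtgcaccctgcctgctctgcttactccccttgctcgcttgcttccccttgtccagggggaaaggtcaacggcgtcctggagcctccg
Kcnc1: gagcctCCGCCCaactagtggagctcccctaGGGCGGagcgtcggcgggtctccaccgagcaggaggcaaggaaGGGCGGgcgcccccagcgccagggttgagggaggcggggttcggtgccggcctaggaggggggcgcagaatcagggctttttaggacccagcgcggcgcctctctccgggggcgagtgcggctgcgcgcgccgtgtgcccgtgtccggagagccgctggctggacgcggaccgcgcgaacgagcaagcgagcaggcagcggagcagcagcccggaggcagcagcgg
They lie at chr4:177246499-177246798 on the minus strand for Kcnj8, at chr13:106252966-106253265 on the plus strand for Kcnh1, at chrX:110727800-110728099 on the minus strand for Kcne5 and at chr1:106038997-106039296 on the plus strand for Kcnc1. Kcnj8 held 1 GC box, Kcnh1 held 2, Kcnc1 held 3, and these letters were not in the Kcne5 window. A GC box was in 30 of the 56 member entries, or 53.6%, against 33.1% of all 33469 promoters. The median GC content was 62.3% in member entries and 51.7% in all promoters. The AP-1 motif TGANTCA was in 1 member entry, that of Kcnj16, or 1.79%, against 7.33% of all. The CRE motif TGACGTCA was in 0 member entries, against 1.83% of all. The TATA box TATAAA was in 1 entry, that of Kcnj13, or 1.79%, against 14.2% of all, and the E-box CACGTG was in 3 entries, or 5.36%, against 6.42% of all. Both strands were read, none of these motifs overlapped another in the 4 windows shown, and a match describes letters only.

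Levels between genes were compared as deposited FPKM, which are scaled for gene length. In sham cord, 18 members reached 10 FPKM and 15 stayed under 1 FPKM. Kcna1, an axonal pore found beside the nodes of Ranvier, stood at 76.8 ± 10.4 FPKM (SD, n = 3). Kcnab2, the cytosolic partner of Kcna pores, stood at 51.7 ± 9.36 FPKM, and its range lay below that of Kcna1. Kcnc1, Kcna6 and Kcna2 had 32.4, 31.7 and 31.5 FPKM. Kcnk1, a leak channel, was the highest member of the glial, immune or vascular class, at 29.3 ± 6.59 FPKM. Kcnt1, the sodium-activated channel, stood at 26.1 FPKM, Kcnh2, the ERG channel, at 24.4 FPKM, and Kcng4, the highest silent subunit, at 23.9 FPKM.

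**Figure D1:**
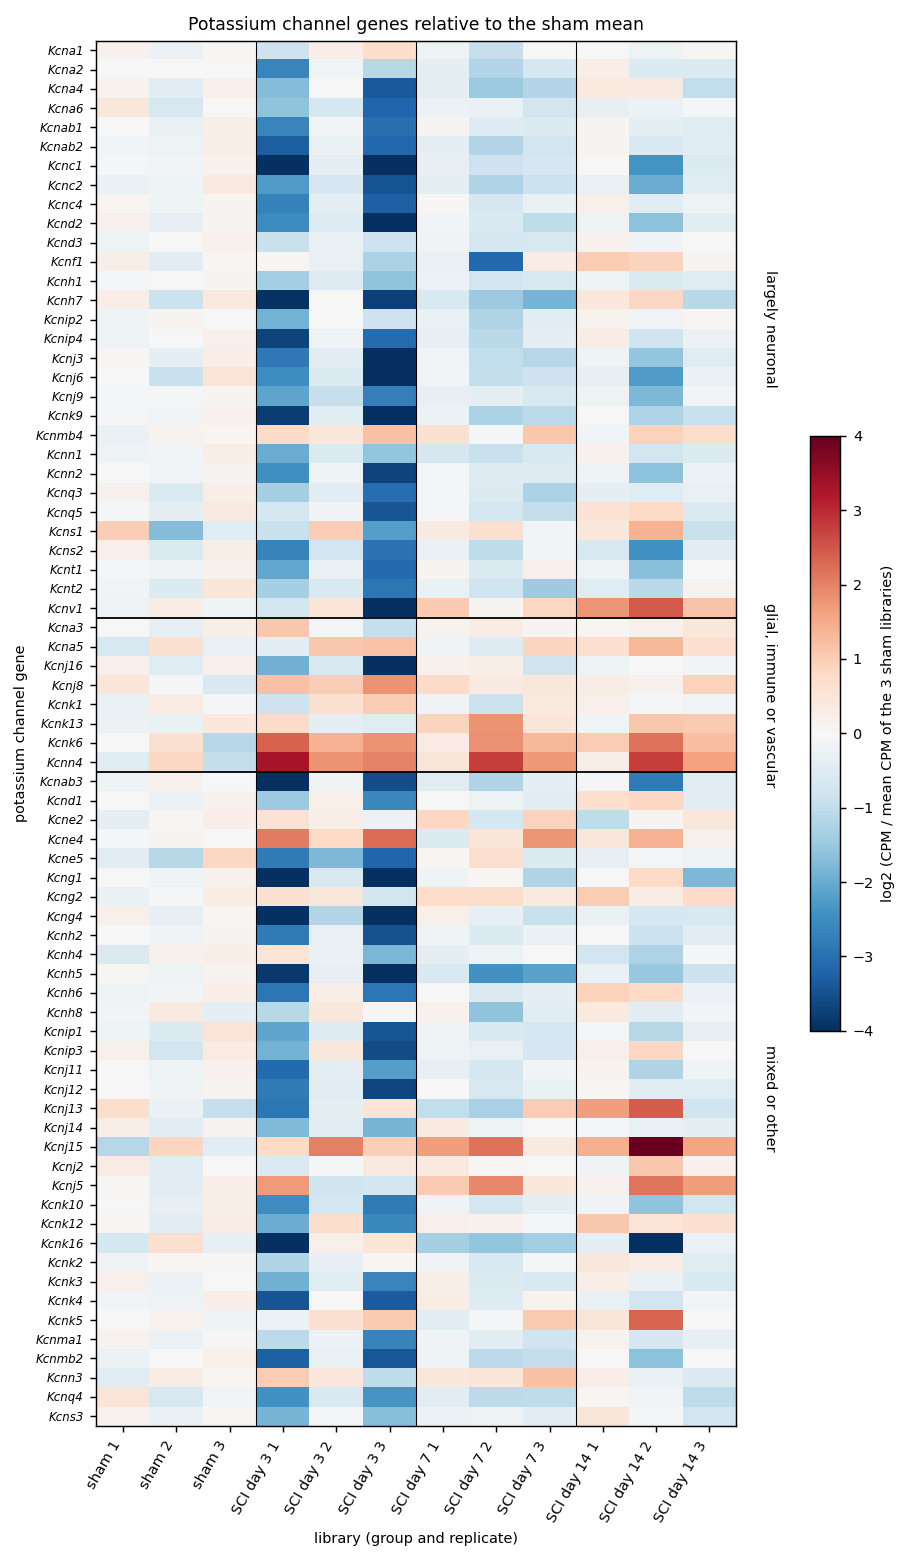
Log2 of each gene's CPM over the mean CPM of the 3 sham libraries, for 72 of the 74 potassium channel genes (rows, by class) in 12 libraries (columns); colours end at 4 in either direction. SCI day 3 replicates 1 and 3 are low in most neuronal genes and SCI day 3 replicate 2 is not, with class medians of 23.3%, 11.7% and 81.4% of the sham mean.

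The first comparison asked which channel genes differed from sham 3 days after injury. Kcnj8 rose and Kcnh1 and Kcne5 fell, the only 3 of 74 to pass the test (quasi-likelihood F-test in edgeR, with p adjusted over all genes by Benjamini-Hochberg and a limit of 0.05). Over all 18714 genes tested, 6.70% passed, 5.50% as higher and 1.20% as lower. Most members were nevertheless lower: 58 of 74 had a log2 fold change below 0, with a median of -1.15, against a median of 0.03 over all genes tested. At an unadjusted p under 0.05, 26 members were lower and 5 higher, while over all genes 14.6% were lower and 20.6% higher. All 3 SCI values lay below all sham values for 31 members and above them for 5, against 15.9% and 21.2% of all genes.

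Kcnj8 encodes the pore of the ATP-sensitive channel of vessel walls, found in pericytes and smooth muscle. It had 20.3, 17.8 and 31.2 CPM at SCI day 3, against 12.5, 8.55 and 5.88 CPM in sham. The groups did not overlap. The log2 fold change was 1.33 ± 0.34 (SE), with an adjusted p of 0.0463 by edgeR's quasi-likelihood test. Its partner Abcc9, the sulfonylurea receptor of the same channel, is the next protein-coding gene beside Kcnj8 on GRCr8. Abcc9 had 70.7, 33.9 and 58.6 CPM, against 27.4, 18.8 and 19.8 CPM in sham, and also rose, with a log2 fold change of 1.26 ± 0.31 (SE) and an edgeR adjusted p of 0.0436. Mural cell markers (7 of 7 found, none at 0) summed to 328%, 169% and 179% of the sham mean at SCI day 3, against 85.2% to 120% in sham. Their log2 fold changes were 2.53 for Des, 2.18 for Tagln, 1.72 for Acta2, 1.45 for Pdgfrb and 0.78 for Notch3. Those of Rgs5 and Myh11 were -0.21 and -0.09. The mural sum was highest in replicate 1 and Kcnj8 in replicate 3, and the part of the mural list was not tested. Endothelial markers (6 of 7 found, none at 0) summed to 154% to 368%, against 83.6% to 109% in sham, and their part in the result was not tested. In bulk tissue, a change in the number of cells of a type and a change in RNA per cell cannot be told apart.

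Kcnh1 encodes the ether-a-go-go channel, a voltage-gated pore of neurons. It had 4.81, 8.73 and 4.06 CPM at SCI day 3, against 11.7, 12.3 and 13.3 CPM in sham. All 3 injured libraries were below all sham libraries, replicate 2 included, and the sham values were close together. The log2 fold change was -1.13 ± 0.29 (SE), with an adjusted p of 0.0459 by edgeR's quasi-likelihood test. Kcne5 encodes a single-pass auxiliary subunit that dampens Kcnq-type currents. It had 0.885, 1.81 and 0.701 CPM at SCI day 3, against 4.66, 2.92 and 11.3 CPM in sham. The groups did not overlap, although the sham libraries were far apart. The log2 fold change was -2.51 ± 0.54 (SE), with an edgeR adjusted p of 0.0369.

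The number of genes called at day 3 turned on single libraries. Without SCI day 3 replicate 2, 7087 of all 19084 genes passed. Over all genes, 524 to 749 passed without SCI day 14 replicate 1 or 2, sham replicate 2, or SCI day 7 replicate 1 or 3. Without any one of the others, 1 to 18 genes passed, and a count of 0 members there describes a loss of calls over all genes. The number of members called was 52 without SCI day 3 replicate 2 and 2 without SCI day 14 replicate 2. It was 1 without sham replicate 2, SCI day 7 replicate 1 or SCI day 7 replicate 3, and 0 without any one of the other 7. Without both SCI day 3 replicates 1 and 3 it was also 0. That fit keeps 1 library at day 3, assumed to vary like the other groups, and 1 of all 19694 genes passed in it, so the lost calls say nothing about these genes. The size of the difference remains a description of replicate 2 against sham. The log2 fold change was then 0.93 for Kcnj8, 0.57 for Abcc9, -0.56 for Kcnh1 and -1.84 for Kcne5, nearer to 0 than with all libraries for all 4. It was also nearer to 0 for Kcnc1 (-0.46), Kcng4 (-1.22), Kcnj9 (-0.96), Kcnj16 (-0.70), Kcne4 (0.75), Kcnk6 (1.35) and Kcnn4 (1.77), whose values with all libraries follow. Most of these genes were named for their values with all libraries, and that choice alone favours smaller differences here. The median of the glial, immune or vascular class, given below, moved the other way.

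Without SCI day 3 replicate 2, edgeR called 4 members higher and 48 lower, against 19.2% and 18.0% of all genes. The 4 were Kcnj8, Kcnn4, Kcnk6 and Kcne4. DESeq2 on all libraries called these 4 as higher (16.0% of all genes) and 21 members as lower (11.5%). Limma voom with sample weights called the same 4 (17.7%) and 47 as lower (15.6%). All 21 members that DESeq2 called lower were lower in both other fits, 4 of 4 higher calls likewise. The fits share libraries and the other 2 called more genes, so this overlap is not independent support. Of the 48 lower without replicate 2, 26 were neuronal, 21 in neither class and 1, Kcnj16, in the glial, immune or vascular class.

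**Figure D2:**
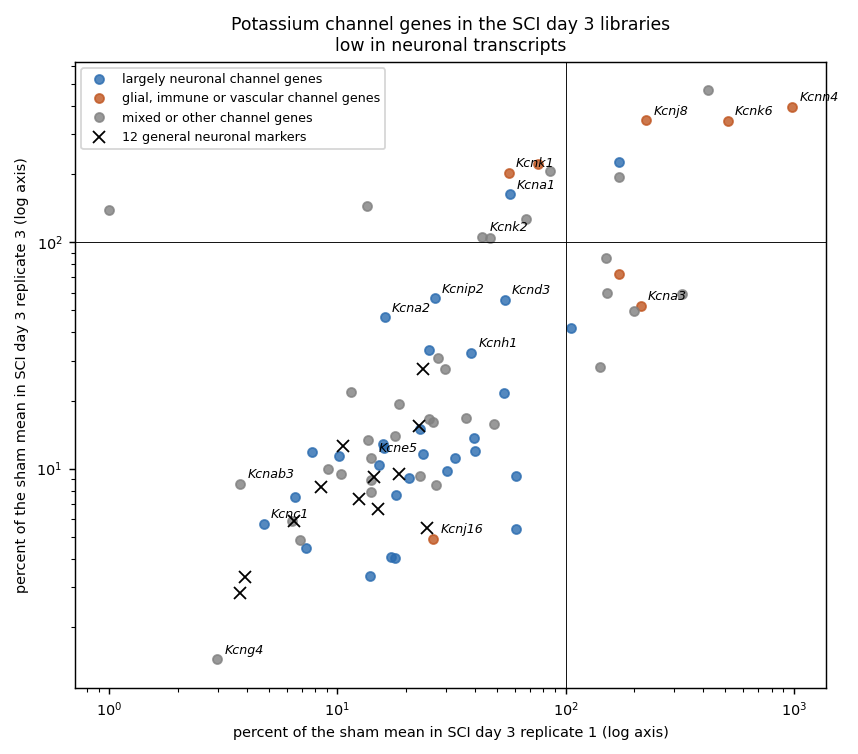
Percent of the sham mean CPM in SCI day 3 replicate 1 (x, log axis) and replicate 3 (y, log axis) for 72 potassium channel genes, by class, with 12 general neuronal markers as crosses; a value under 1% is drawn at 1%. Neuronal channel genes have a median of 23.3% in replicate 1 and 11.7% in replicate 3, where the neuronal markers sum to 9.02% and 7.10%, while Kcna1, Kcnk1, Kcnj8, Kcnk6 and Kcnn4 lie at or above 100% in replicate 3.

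By class, the neuronal members had a median log2 fold change of -1.40 at day 3, with 30 of 32 below 0, and the glial, immune or vascular members one of 0.60, with 7 of 8 above 0. The 2 neuronal members above 0 were Kcna1 and Kcnmb4. The members in neither class had a median of -1.02. The neuronal class stood at a median of 23.3%, 81.4% and 11.7% of sham in the 3 SCI day 3 libraries. The glial, immune or vascular class stood at a median of 192%, 175% and 213% in the same libraries. Its summed CPM was 153, 217 and 209, against 185 to 199 in sham, so the sum was not raised in replicate 1. Its members also differed by library: Kcnk1 stood at 56.3%, 151% and 203% and Kcna3 at 213%, 94.5% and 52.5%. Without SCI day 3 replicates 1 and 3, the median log2 fold change was -0.35 for the neuronal class and 0.74 for the glial, immune or vascular class. By median percent of sham, the neuronal class split with the neuronal markers and the other class did not. The part of neuronal marker content in these values was not tested.

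Among pore-forming voltage-gated subunits, the fast Kcnc subfamily was the lowest in SCI day 3 replicates 1 and 3, and in replicate 2 the Kcnq median was lower, at 73.1% of sham. The Kcnc median was 10%, 76.9% and 7.43% of sham in the 3 SCI day 3 libraries. Kcnc1, a fast-gating pore of rapidly firing neurons, had 6.37, 101 and 7.66 CPM, against 129, 123 and 150 CPM in sham. Replicates 1 and 3 were far below sham and replicate 2 was under its lowest value. The log2 fold change was -1.85 ± 0.94 (SE), with an edgeR adjusted p of 0.180. Without replicate 2 it was -4.28, with an edgeR adjusted p of 0.0013, in a fit that called 18.0% of all genes lower. Neuronal markers stood at 88.4% of the sham mean in replicate 2, against 9.02% and 7.10% in replicates 1 and 3. Leaving replicate 2 out thus favours a larger fall, and Kcnc1 was chosen after its values were seen, so that p is no further support.

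The Kcna subfamily was less even, with medians of 44.7%, 96.5% and 49.5%. Kcna1 had 369, 774 and 1060 CPM at SCI day 3, against 726, 551 and 668 CPM in sham. The groups overlapped, replicate 3 was the highest of all 12 libraries, and the log2 fold change was 0.16 ± 0.37 (SE), with an edgeR adjusted p of 0.786. Kcna1 made up 68.6%, 63.2% and 85% of the summed Kcna FPKM at SCI day 3, against 52.6%, 54.0% and 54.3% in sham. Kcna2, its frequent partner in axonal channels, had 65.0, 371 and 188 CPM, against 399, 404 and 408 CPM in sham. Kcna6 had 79.1, 149 and 27.2 CPM, against 333, 156 and 239 CPM in sham. Schwann cell markers (6 of 6 found, none at 0) summed to 67.2%, 149% and 259% of the sham mean in the 3 SCI libraries, against 28.0%, 235% and 36.8% in sham, and their part in the Kcna1 values was not tested.

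Kcnd2, an A-type channel of dendrites, had 9.21, 37.8 and 2.17 CPM at SCI day 3, against 60.4, 42.2 and 57.9 CPM in sham. Kcnd3, the other Kcnd gene in the neuronal class, had 27.2, 40.8 and 28.1 CPM, against 43.4, 51.1 and 56.3 CPM in sham. Kcnd2 and Kcnd3 were lower in all 3 injured libraries without overlap, Kcnd3 by less, and neither passed the test (edgeR adjusted p 0.134 for Kcnd2 and 0.0658 for Kcnd3).

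The silent subunits had a median log2 fold change of -0.79, with 7 of 8 below 0. Kcng4 had the lowest of any member, -2.67 ± 1.0 (SE, edgeR adjusted p 0.0955). It had 3.01, 45.0 and 1.46 CPM at SCI day 3, against 117, 79.6 and 106 CPM in sham, so that all 3 libraries were below sham. Kcns3 had 4.58, 16.1 and 5.11 CPM, against 18.2, 13.8 and 17.5 CPM in sham. Kcnf1 and Kcnv1 were under 3 CPM in every sham and SCI day 3 library.

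All 7 Kcnh genes and all 3 Kcnq genes had log2 fold changes below 0, with medians of -1.13 and -1.32. Kcnh2, the ERG channel, had 16.8, 96.9 and 10.6 CPM at SCI day 3, against 122, 108 and 130 CPM in sham (edgeR adjusted p 0.119). Kcnq3, a subunit of the M-current that restrains repetitive firing, had 8.94, 16.4 and 2.68 CPM, against 25.4, 15.1 and 26.7 CPM in sham.

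Inward rectifiers lay in both directions, with 9 of 12 below 0. Kcnj9, a subunit of the G-protein-gated channel, had 8.35, 19.3 and 5.41 CPM at SCI day 3, against 34.7, 35.2 and 39.1 CPM in sham. Replicate 2 was at 53.1% of the sham mean, the lowest of the 32 neuronal members in that library, and the log2 fold change was -1.77 ± 0.48 (SE), with an edgeR adjusted p of 0.0526. Kcnj14, a strong rectifier, had 12.3, 31.0 and 11.5 CPM, against 49.3, 31.0 and 44.2 CPM in sham. Kcnj16, a glial and epithelial subunit that needs a Kcnj partner, had 22.9, 55.4 and 4.26 CPM, against 98.8, 62.1 and 99.7 CPM in sham. It was the only one of its class with a log2 fold change below 0, -1.72 ± 0.66 (SE, edgeR adjusted p 0.102). Astrocyte markers (7 of 7 found, none at 0) summed to 34.8%, 62.9% and 23.1% of the sham mean in these libraries, against 75.1% to 115% in sham, and their part in the Kcnj16 values was not tested.

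Leak channels had a median log2 fold change of -0.41, with 7 of 11 below 0. Kcnk1 had 37.9, 102 and 136 CPM at SCI day 3, against 54.5, 83.9 and 63.4 CPM in sham, and the groups overlapped. Its 3 libraries had the same order as the Schwann cell list, given above, within SCI day 3 and within sham. At day 7 Kcnk1 had 60.5, 37.4 and 88.5 CPM, where that list stood at 31.1%, 10.1% and 90.1% of the sham mean, and the part of the list was not tested. Kcnk9, an acid-sensitive leak channel of neurons, had 2.21, 21.8 and 1.36 CPM, against 29.0, 28.0 and 34.3 CPM in sham. Kcnk6, a leak channel through which macrophages lose potassium, had 10.7, 5.48 and 7.19 CPM, against 2.09, 3.21 and 0.952 CPM in sham. All 3 were above sham, with a log2 fold change of 1.86 ± 0.52 (SE) and an edgeR adjusted p of 0.0553.

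Among calcium- and sodium-activated channels, 5 of 7 were below 0. Kcnn4, the intermediate-conductance channel of T cells and activated microglia, had the highest log2 fold change of any member, 2.48 ± 0.78 (SE, edgeR adjusted p 0.0673). It had 16.4, 5.83 and 6.62 CPM at SCI day 3, against 1.19, 2.95 and 0.860 CPM in sham, without overlap. Kcnn1, a small-conductance channel behind the afterhyperpolarisation, had 2.58, 6.86 and 3.44 CPM, against 8.96, 9.55 and 12.2 CPM in sham. Kcnt1 had 33.0, 114 and 16.2 CPM, against 133, 128 and 158 CPM in sham, and Kcnma1, the large-conductance channel, had 11.6, 20.2 and 3.73 CPM, against 26.1, 20.3 and 24.6 CPM in sham.

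Microglia and macrophage markers (8 of 8 found, none at 0) summed to 400%, 99.7% and 108% of sham in the 3 SCI day 3 libraries, against 79% to 116% in sham. Within the list, the log2 fold change at SCI day 3 ran from 2.92 for Cd68 to -1.61 for P2ry12, so the sum does not stand for each marker. Kcnn4 and Kcnk6 were highest in replicate 1, where that sum was highest. They were also above sham in the 2 libraries where the sum was within the sham range. The part of that list in their values was not tested.

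Auxiliary subunits were below 0 in 9 of 12. All 3 Kcnab genes were low, with medians of 10.2%, 91.6% and 11.4% of the sham mean. Kcnab2 had 16.2, 131 and 18.1 CPM at SCI day 3, against 148, 137 and 191 CPM in sham. Kcnip1, a calcium-binding partner of Kcnd pores, had 7.92, 24.1 and 3.18 CPM, against 30.4, 23.6 and 48.9 CPM in sham. Kcne4, which inhibits several voltage-gated pores, had 17.8, 7.37 and 19.8 CPM, against 3.96, 4.56 and 4.15 CPM in sham, with a log2 fold change of 1.80 ± 0.58 (SE) and an edgeR adjusted p of 0.0709. Kcnmb4, the neuronal partner of Kcnma1, had 6.78, 5.31 and 8.94 CPM, against 3.31, 4.37 and 4.18 CPM in sham, so that it lay above sham while its pore did not (log2 fold change 0.80, edgeR adjusted p 0.142).

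**Figure D3:**
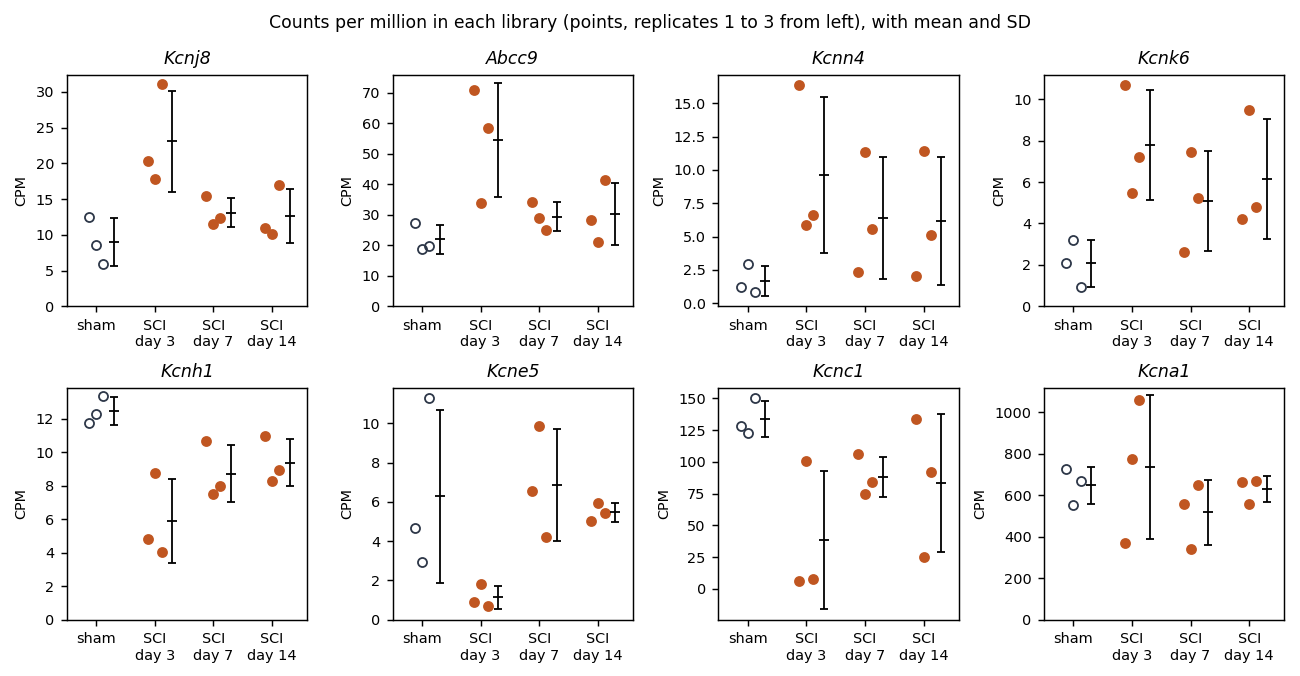
CPM in each of the 12 libraries for 8 genes (points, replicates 1 to 3 from left in each group), with the mean and SD of 3 libraries beside them. Kcnj8, Abcc9, Kcnn4 and Kcnk6 lie above sham at SCI day 3 and Kcnh1 and Kcne5 below it, while Kcnc1 splits into 6.37, 101 and 7.66 CPM and Kcna1 overlaps sham.

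Of 20 genes whose products bind potassium channels or share their work (among them Dpp6, Abcc9 and Hcn4), Abcc9 alone passed at day 3, as higher. The median log2 fold change of the 20 was -1.54. At an unadjusted p under 0.05, 14 were lower and 1 higher, where 14.6% and 20.6% of all genes were and 6.70% passed the test. The list summed to 20.2%, 76.8% and 20.1% of the sham mean in the 3 SCI day 3 libraries, low in the same 2 as the neuronal markers, and their part was not tested. Hcn4, a pacemaker channel gene, had a log2 fold change of -1.74 ± 0.55 (SE, edgeR adjusted p 0.0688).

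At day 7, 0 of 74 members passed edgeR's quasi-likelihood test, where 0.0160% of all genes did. DESeq2 and limma voom also called 0 members, against 2.74% and 1.47% of all genes. At an unadjusted p under 0.05, 3 members were higher and 1 lower, against 7.76% and 2.13% of all genes. The members' median log2 fold change was -0.36, with 54 of 74 below 0, against -0.02 over all genes. The neuronal median was -0.56, with 29 of 32 below 0, and the glial, immune or vascular one 0.33, with 6 of 8 above 0. The groups did not overlap for 14 members that were lower and 4 that were higher, against 9.73% and 13.9% of all genes.

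The 3 highest by p at day 7 were Kcnn4, Kcnk13 and Kcnk6. Kcnn4 had 2.33, 11.4 and 5.57 CPM, against 1.19, 2.95 and 0.860 CPM in sham, and the groups overlapped (log2 fold change 1.89 ± 0.76 SE, edgeR adjusted p 0.448). Kcnk13, a leak channel of microglia, had 4.44, 8.38 and 3.34 CPM, against 2.01, 1.98 and 3.18 CPM in sham, and the groups did not overlap (log2 fold change 1.12, edgeR adjusted p 0.471). Microglia and macrophage markers summed to 299%, 511% and 233% of the sham mean in these libraries. Both genes and the list were highest in replicate 2, and the part of the list in their values was not tested. Replicate 2 also held skeletal muscle markers (4 of 5 found) at 108 CPM, against 1.97 to 2.46 CPM in sham. On the lower side, Kcnd3 had 45.2, 30.8 and 32.4 CPM, against 43.4, 51.1 and 56.3 CPM in sham (log2 fold change -0.51 ± 0.21 SE, edgeR adjusted p 0.464), followed by Kcnn1 and Kcnh1 at -0.76 and -0.55.

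At day 14, 0 of 74 members again passed edgeR's quasi-likelihood test, where 0.0160% of all genes did. DESeq2 and limma voom called 0 members, against 1.11% and 0.0481% of all genes. At an unadjusted p under 0.05, 4 were higher and 0 lower, against 6.43% and 0.967% of all genes. The median log2 fold change was -0.19, with 47 of 74 below 0, against 0.01 over all genes. The neuronal median was -0.29 and that of the glial, immune or vascular class 0.58. Without SCI day 14 replicates 1 and 2, which leaves 1 library at day 14, these medians were -0.44 and 0.70, and the log2 fold change was 1.12 for Kcnk6 and 1.54 for Kcnn4. The groups did not overlap for 5 members that were lower and 7 that were higher, against 4.77% and 11.0% of all genes.

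Kcnj15, an inward rectifier of epithelia, had 0.900, 5.61 and 1.0 CPM at SCI day 14, against 0.155, 0.614 and 0.246 CPM in sham, with a log2 fold change of 2.86 ± 0.86 (SE) and an edgeR adjusted p of 0.594. Kcnj15 reached 1 CPM in 4 libraries, none of them sham. The minimum thus admitted it through injured libraries alone, which favours a rise, so its rise is a description only. Kcnv1, a silent neuronal subunit, had 3.39, 5.46 and 2.19 CPM, against 0.867, 1.24 and 0.891 CPM in sham, with a log2 fold change of 1.85 ± 0.80 (SE) and an edgeR adjusted p of 0.658. Kcnj15 and Kcnv1 lay above sham in all 3 libraries and were highest in replicate 2. Of the 3, replicate 2 also held the most sensory ganglion transcripts and the highest microglia and macrophage sum (425% of the sham mean). In replicate 1 the sensory ganglion list was high too (324.5 CPM). Kcnv1 was higher there than in replicate 3, and Kcnj15 was not. Without SCI day 14 replicates 1 and 2, the log2 fold change was 1.48 for Kcnj15 and 1.05 for Kcnv1. The part of either list in these values was not tested.

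Kcnk6 had 4.20, 9.46 and 4.79 CPM at day 14, against 2.09, 3.21 and 0.952 CPM in sham, again without overlap (log2 fold change 1.53 ± 0.52 SE, edgeR adjusted p 0.594). Kcnn4 had 2.01, 11.4 and 5.11 CPM, against 1.19, 2.95 and 0.860 CPM in sham, and microglia and macrophage markers summed to 117%, 425% and 340% of the sham mean in these 3 libraries. The lowest of both was in replicate 1. Replicate 2 was also low in Kcnc genes, at a median of 27.9% of the sham mean, against 99.4% and 69.7% in replicates 1 and 3. Kcnc1 had 134, 25.5 and 91.7 CPM at day 14. In replicate 2 the sum of the 12 neuronal markers was 88.1% of the sham mean. Their mean log2 difference from the sham mean was -0.58 there, against -0.22 to 0.21 in the sham libraries. The part of neuronal marker content in the Kcnc values was not tested. On the lower side by p, Kcnh1 had a log2 fold change of -0.45, Kcns2 one of -1.0 and Kcnk10 one of -0.75, with none past the test.

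**Figure D4:**
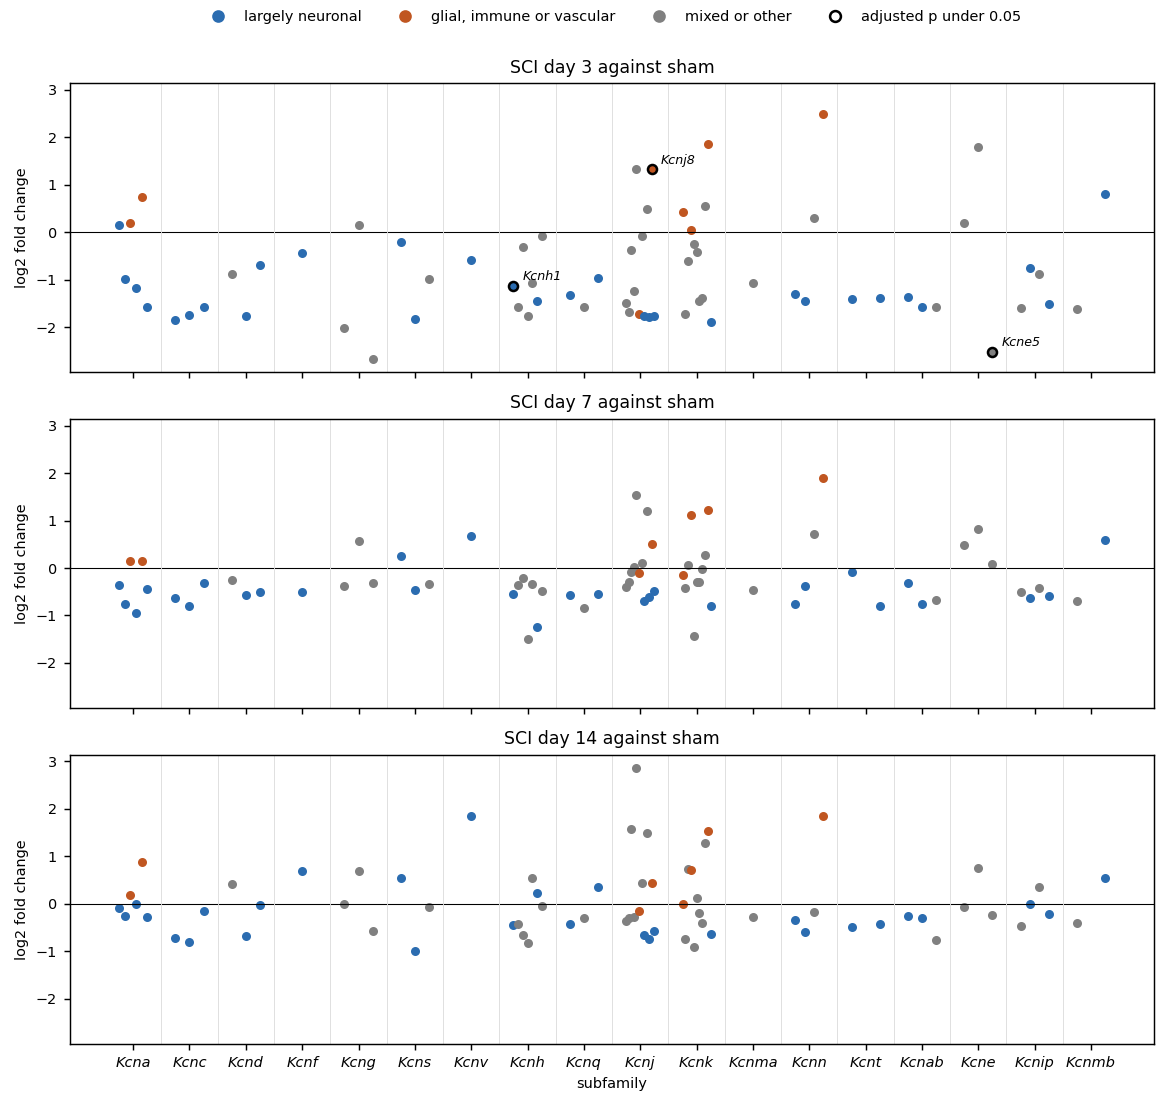
Log2 fold change (SCI day over sham) of 72 potassium channel genes by subfamily at days 3, 7 and 14, coloured by class; black rings mark an edgeR adjusted p under 0.05. The neuronal median is -1.40, -0.56 and -0.29 at days 3, 7 and 14, and rings stand only at Kcnj8, Kcnh1 and Kcne5 at day 3.

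Along the series, Kcnj8 averaged 8.99, 23.1, 13.1 and 12.7 CPM in sham and at days 3, 7 and 14. Kcnh1 averaged 12.5, 5.87, 8.72 and 9.38 CPM, and Kcne5 6.28, 1.13, 6.86 and 5.46 CPM. All 3 lay nearer to sham at days 7 and 14 than at day 3, but they were chosen for passing the test at day 3. That choice alone favours smaller differences on other days, and no member passed edgeR's test between SCI days. Averaged over the 3 SCI days, 0 of 74 members differed from sham by edgeR's quasi-likelihood test, where 0.0481% of all genes did. DESeq2 called 2 as higher and 1 as lower, against 6.66% and 1.34% of all genes. Limma voom called 3 as higher and 42 as lower, against 14.7% and 15.8% of all genes. Without SCI day 3 replicate 2, edgeR called 33 members, against 17.5% of all genes. At an unadjusted p under 0.05, with all libraries, 5 members were higher and 8 lower, against 13.0% and 6.16% of all genes.

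Between SCI days, 0 members passed edgeR's test for day 7 against day 3, day 14 against day 3 or day 14 against day 7, where 0% of all genes did. DESeq2 called 1 member as higher at day 7 than at day 3 and 2 as higher at day 14 than at day 3, where it called 1.31% and 5.86% of all genes in either direction. It called 0 members between days 14 and 7, against 0.267% of all genes. At an unadjusted p under 0.05, 10 members differed between days 7 and 3, 15 between days 14 and 3 and 1 between days 14 and 7, against 14.8%, 17.9% and 3.67% of all genes. Without SCI day 3 replicate 2, 40 members were called higher at day 7 than at day 3 and 47 higher at day 14 than at day 3, against 11.4% and 12.9% of all genes called higher and 18.9% and 22.8% called in either direction. No member was called lower there. The comparisons share libraries, so their values are not independent.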

How the data were processed

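RNA from rat lumbar cord was measured in 12 libraries made with a SMARTer mRNA kit, per the labels' protocols. The deposited counts are raw reads per gene and the deposited FPKM were scaled by the authors per length and library, per the file headers. The aligner, counter and strand use were not given in the sources used here, so overlapping genes and near-identical copies are uncertain. Mouse builds, GRCm38 and mm10, stand in the submitters' processing notes, while the identifiers are rat.

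Genes were filtered with filterByExpr, scaled by TMM and fitted over all 12 libraries with 1 mean per group (edgeR 4.0.16, R 4.3.3, 8 residual degrees of freedom). DESeq2 1.42.0 and limma 3.58.1 were alternatives. Each SE restates the test, as the absolute log2 fold change over the root of F. CPM are counts over the library total. The fits were tested on simulated data, and no library was a copy of another in its group. Pairs from different groups were not checked for copies. Named genes were those past the test, the 3 with the smallest p in each direction per day, and the highest FPKM of each subfamily. Others, such as Kcne4, Kcnk9, Kcna2, Kcna6, Kcnc1 and Hcn4, were chosen after their values were seen. A few genes are counted in the totals and not reported here by name or drawn. Members and lists were chosen with earlier results of these data known.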

Additional observations from a re-analysis of the deposited data

Results flagged for a closer look

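Kcnip3, a calcium-binding partner of Kcnd pores, lay below its sham mean of 12.9 CPM in all 3 SCI day 7 libraries (11.3, 10.6 and 8.17 CPM) and above it in all 3 SCI day 14 libraries (14.8, 23.0 and 13.1 CPM). Day 14 against day 7 had a log2 fold change of 0.76 ± 0.74 (SE) and an edgeR adjusted p of 1. The difference between these days did not pass the test.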

How the results depend on the processing

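The count of members called at day 3, 3 as reported, was 25 with DESeq2 and 51 with limma voom. It was 1 with no filter on low counts, and 0 without SCI day 3 replicates 1 and 3, without SCI day 14 replicates 1 and 2, or with only the groups compared; leaving out 2 libraries keeps 1 in that group. Kcne5 was called in 12 of 23 fits, Kcnh1 in 7 and Kcnj8 in 6. Leaving out 1 library in turn gave 0 to 52 at day 3, 0 to 33 for any SCI day and 0 to 47 between SCI days, the highest always without SCI day 3 replicate 2, where 17.5% of all genes passed for any SCI day, and 18.9% and 22.8% for days 7 and 14 against day 3. For any SCI day, DESeq2 called 3 (6.66% of all genes higher and 1.34% lower) and limma voom 45 (14.7% and 15.8%), and between SCI days DESeq2 called 2 in all (0.267% to 5.86%), where edgeR called 0. At days 7 and 14 the count was 0 under every alternative run and 0 to 0 with 1 library left out. The cause of these shifts was not tested. With the replicate number as a block, the day 3 count was 0, where 8 of all 18714 genes passed. Over all genes at day 3, 733 of 23526 passed with no filter on low counts and 1 of 17905 with only the groups compared. The counts of 0 with the block and with only the groups compared thus describe a loss of calls over all genes. Same-numbered libraries did not deviate together: r ran from -0.343 to 0.246 over 18 pairs, with 6 over 0.1, so the numbers were not taken as pairing. No log2 fold change of a gene named by the rule changed sign where it had been called. The spread between libraries, a common biological coefficient of variation of 0.432, limits what 3 libraries a group can show.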
